A study of Homo sapiens with 24 samples.

Results

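The 9 genes described here are HMOX1, NQO1, GCLM, GCLC, TXNRD1, SRXN1, SLC7A11, FTL and FTH1, which are widely used as readouts of the antioxidant transcription factor NRF2. They were taken by name from the gene spots of the array, every probe included, and the list itself was drawn up with earlier results of these data known. The 9 genes had 18 probes of 41000 and 27 spots of 43376 gene spots, and all 18 probes passed the filter on dim probes. RNA came from U87 MG cells, a human glioblastoma line, collected 24 h after irradiation with protons (PT). Each array compared a treated RNA labelled with Cy5 with a control RNA labelled with Cy3, and the dyes were never swapped. In the configurations U87 2 Gy and U87 10 Gy, cells irradiated with 2 or 10 Gy were compared with untreated cells. In the configurations with Si306 (U87 Si306 + 2 Gy, and at the higher dose U87 Si306 + 10 Gy), cells given PT and 10 µM Si306, a small-molecule inhibitor of the SRC kinase, were compared with cells given the same dose of PT alone. Untreated cells are thus the shared control of both PT configurations, and the controls of both Si306 configurations were themselves irradiated.

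NRF2, encoded by NFE2L2, is held at a low level by KEAP1, which marks it for degradation. When oxidants or electrophiles modify KEAP1, NRF2 accumulates, pairs with small MAF proteins and binds antioxidant response elements in front of its target genes. BACH1 represses a subset of the same genes, HMOX1 above all, and leaves them when heme binds it. The products import cystine, make glutathione, reduce thioredoxin and quinones, break down heme and store iron, and in cancer cells, glioma included, this set is known for its link with resistance to oxidative injury and with protection from ferroptosis.

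The 24 deposited scanner tables were labelled as 6 biological replicates of each configuration, but their headers named 8 arrays, each scanned 3 times. The scans of an array were averaged, which left 2 arrays for each configuration, and p-values measure only the spread between these arrays, which may be technical. The scans labelled U87 2 Gy replicate 5 and U87 10 Gy replicate 2 lay on an array of the other dose by their headers. The SD of the difference in log2 ratio over probes was 0.0770 between replicate 5 and the scans of its array and 0.178 between it and the scans of its label. For replicate 2 these values were 0.0756 and 0.171. Both scans were left out, and for the genes that differed between the doses after PT the difference is given both ways. The arrays of PT alone lay on 1 slide and those with Si306 on another, so that slide and Si306 cannot be told apart between the slides. On both slides the 2 Gy arrays lay at positions 1 and 4 and the 10 Gy arrays at positions 2 and 3. Dose and position on the slide cannot be told apart either. The 6 mesenchymal glioma markers listed for U87 were well above background on every array, as were 1 of 4 markers of the astrocyte and oligodendrocyte lineage (GFAP) and 1 of 6 markers of other cell types (CD14). The immune markers PTPRC and AIF1 were well above background on 0 arrays. The 3 tested markers of other cell types were called higher with Si306 at 2 and 10 Gy, with log2 fold changes of 0.12 and 0.11 (CD14), 0.28 and 0.28 (PECAM1) and 0.33 and 0.31 (EPCAM), and their part in the results was not tested. PECAM1 was well above background in Cy3 or Cy5 on only 4 arrays and EPCAM on 7. RBFOX3, also among the 6, had no probe.

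The 9 genes did not move as one group. After PT, 5 of 9 were down regulated and 2 were up regulated at either dose, and after addition of Si306 to PT 6 of 9 rose and 3 fell at 2 Gy while 5 rose and 3 fell at 10 Gy. These counts hold after loess only. With median centring FTL and NQO1 at both doses of PT, FTH1 at 2 Gy and HMOX1 at 10 Gy turned to values above 0. NQO1, GCLC and TXNRD1 then changed sign with Si306 at 2 Gy. A gene was called at an adjusted p under 0.05 in limma, with its brightest probe standing for it, and was a DEG if the change was also at least 2-fold. Of all gene names tested, 57.0% were called after PT at 2 Gy (32.1% higher and 24.9% lower) and 57.4% at 10 Gy (31.1% higher and 26.3% lower). With Si306 the shares were 66.2% at 2 Gy (38.4% higher and 27.8% lower) and 62.0% at 10 Gy (35.0% higher and 27.0% lower). The counts of called members, 7, 7, 9 and 8 of 9, are read against these shares, and a call alone therefore says little. The median log2 fold change of the 9 genes was -0.19, -0.39, 0.12 and 0.09 in the same order, beside 0.02, 0.02, 0.04 and 0.03 over all gene names. These medians also hold after loess only. They were not taken with median centring, which turned the members named above, so they give no settled direction of the set. With Si306, 4 genes were called at 2 Gy without array 1 (FTL then had no value), and 5 at 10 Gy without either of its arrays, beside 52.4% of all gene names at 2 Gy and 48.4% and 46.7% at 10 Gy in those fits. At 2 Gy NQO1 and SRXN1 lost their calls without either array, and GCLM and GCLC lost theirs without array 1. At 10 Gy SRXN1 and SLC7A11 lost theirs without either array, GCLM without array 1 and FTH1 without array 2. After PT, SLC7A11 in U87 10 Gy lost its call without array 2. DEGs among the 9 were 0 in U87 2 Gy, 1 in U87 10 Gy (TXNRD1) and 1 in each Si306 configuration (HMOX1). This membership depends on the scaling: with median centring TXNRD1 stood at -0.80 in U87 10 Gy and was no DEG, while FTL (1.74 and 1.27 with Si306 at 2 and 10 Gy) and FTH1 (1.33 with Si306 at 2 Gy) became DEGs. With every scan as labelled TXNRD1 also stayed short of 2-fold, at -0.91 with scans averaged by array and label and at -0.88 with array as a random block. DEGs made up 0.727%, 0.967%, 0.727% and 0.372% of the gene names tested in the 4 configurations.

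**Figure D1:**
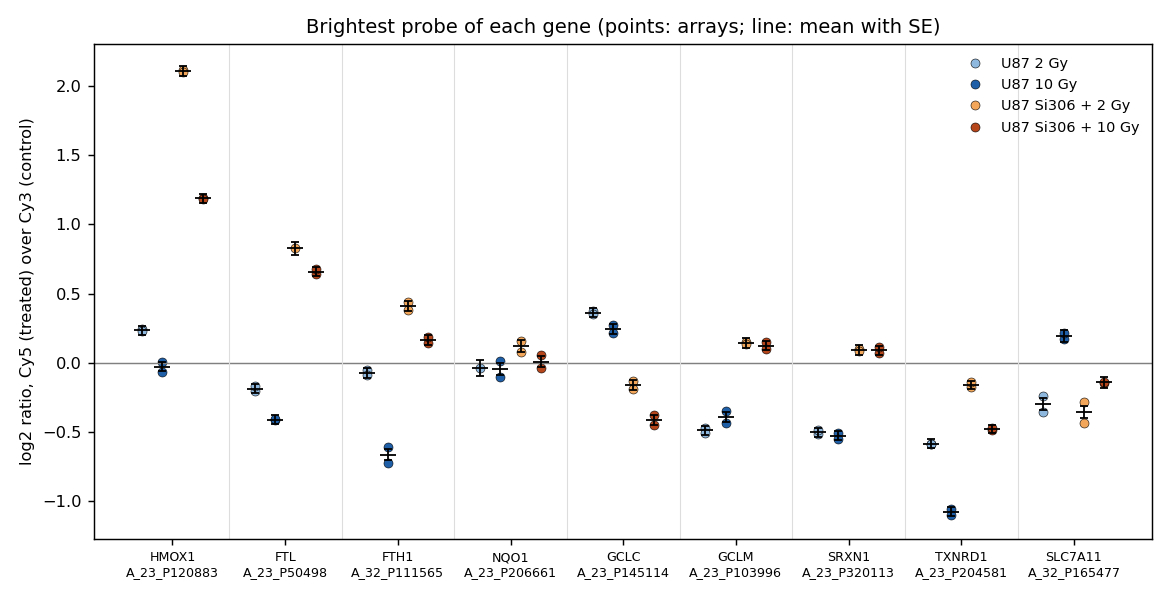
The log2 ratio of Cy5 (treated) over Cy3 (control) is plotted for the brightest probe of each gene, with 1 point for each array and a line at the fitted mean with its SE. HMOX1 with Si306 stands at 2.11 (2 Gy) and 1.19 (10 Gy), and TXNRD1 at -1.07 in U87 10 Gy.

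HMOX1 encodes heme oxygenase 1, which opens the heme ring and releases iron, carbon monoxide and biliverdin. Its probe lies at chr22:34114676-34114735 (hg17, plus strand) and was spotted 10 times. The log2 ratio was 2.12 and 2.10 on the 2 arrays of U87 Si306 + 2 Gy and 1.19 and 1.18 on those of U87 Si306 + 10 Gy. It was 0.24 and 0.23 on the arrays of U87 2 Gy and 0.01 and -0.07 on those of U87 10 Gy. Both arrays of every configuration lay close together, and no array with Si306 overlapped one of PT alone. HMOX1 was thus 4.3-fold higher with Si306 at 2 Gy (log2 fold change 2.11 ± 0.03, SE, n = 2, adjusted p = 1.2e-11) and 2.28-fold higher at 10 Gy (1.19 ± 0.03, n = 2, adjusted p = 1.68e-09), by limma. After PT alone it rose 1.18-fold at 2 Gy (adjusted p = 9.89e-05 by limma; a log2 fold change of 0.24, and 0.76 with median centring), and at 10 Gy the log2 fold change was -0.03 with a 95% interval from -0.10 to 0.04 (adjusted p = 0.488) and 0.41 with median centring.

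The replicate spots of HMOX1 told the same on each array. In U87 Si306 + 2 Gy the 10 spots ranged from 2.06 to 2.18 on array 1 and from 2.03 to 2.15 on array 2, on the log2 ratio scale. In U87 Si306 + 10 Gy they ranged from 1.11 to 1.29 and from 1.12 to 1.24. No spot at one dose overlapped a spot at the other. In PT alone the spots scattered more widely, from -0.09 to 0.35 over 9 spots on array 1 of U87 2 Gy and from -0.23 to 0.07 over 10 spots on array 2 of U87 10 Gy.

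The signal behind the HMOX1 ratio differed between the slides. On the PT slide the normalised intensity of HMOX1 was 96400 and 83600 in Cy3 (untreated cells) and 114000 and 98000 in Cy5 (PT 2 Gy) on the arrays of U87 2 Gy. On the Si306 slide it was 2400 and 1880 in Cy3, which there carried RNA of PT 2 Gy alone, and 10400 and 8030 in Cy5. The brightest HMOX1 signal with Si306 was therefore below every HMOX1 signal without it on the PT slide. RNA labelled as PT 2 Gy alone gave an HMOX1 signal 49.8-fold lower on the Si306 slide than on the PT slide, and for PT 10 Gy alone the signal was 67.6-fold lower. Over all kept probes the median of this ratio (PT slide over Si306 slide) was 0.961 and 1.2, and HMOX1 stood at percentile 0.0958 and 0.0824 of that difference. The other member probes, leaving out SLC7A11 A_24_P200420, which was not well above background on that slide, were lower on the Si306 slide too, by 1.65-fold to 29-fold for PT 2 Gy and by 1.29-fold to 26.8-fold for PT 10 Gy. The probe that differed most after HMOX1 was A_24_P919330 of FTH1. Dye and slide both differ in this comparison and cannot be told apart, whether the RNA came from the same cultures is not given in the sources used here, and it was made after the values had been seen. Ratios within an array do not use it, but the Si306 ratios start from a control with far less HMOX1 signal than the PT ratios do.

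FTL and FTH1 encode the light and heavy chains of ferritin, the protein shell that stores iron, and the heavy chain carries the ferroxidase site. FTL had 3 probes and FTH1 had 5, each 60 bases long. The brightest probe of each gene and the second probe of FTH1 are shown because ferritin sequences are alike and the probes are the only thing that separates these readings. The first 2 lie at chr11:61488861-61488920 and chr11:61488852-61488911 (minus strand) and the FTL probe at chr19:54161668-54161727 (plus strand), all in hg17 as the files annotate them. Capitals mark the bases that differ between the FTH1 probes in their overlap of 51 bases, and in the FTL probe those that differ from FTH1 A_32_P111565 over 57 aligned bases:
FTH1 A_32_P111565: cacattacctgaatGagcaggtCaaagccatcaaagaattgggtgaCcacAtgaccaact
FTH1 A_24_P58337: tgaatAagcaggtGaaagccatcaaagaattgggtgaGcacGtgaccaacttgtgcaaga
FTL A_23_P50498: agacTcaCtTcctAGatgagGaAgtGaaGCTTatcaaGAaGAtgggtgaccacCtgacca

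The FTH1 probes share 92.2% of their overlap, with 4 mismatches, and the FTL probe shares 70.2% with FTH1, with 17 mismatches. The annotation of the files also ties each of the 5 FTH1 probes to 1 to 3 non-coding RNA records, while it ties no FTL probe to any. FTH1 readings are therefore uncertain, since transcripts of near-identical copies may share a probe.

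With Si306 the ferritin signal was called higher on 7 of 8 probes at 2 Gy (36.3% of all probes were called higher) and on 6 of 8 at 10 Gy (33.1% of all probes). FTL A_23_P50498 had a log2 ratio of 0.83 on the 1 array of U87 Si306 + 2 Gy that gave a value, and of 0.64 and 0.68 on the arrays of U87 Si306 + 10 Gy. On the other array of U87 Si306 + 2 Gy every scan of this spot was marked as an outlier, so the fit used 1 array there, which is assumed to vary as the arrays of the other configurations do. All of these values lay above those of PT alone, which were -0.21 and -0.16 at 2 Gy and -0.41 and -0.41 at 10 Gy. The FTL rise with Si306 was 1.77-fold at 2 Gy (adjusted p = 2.24e-07) and 1.58-fold at 10 Gy (adjusted p = 1.33e-07, limma). The other 2 FTL probes, measured on both arrays, gave 0.52 and 0.64 at 2 Gy and 0.42 and 0.57 at 10 Gy as log2 fold changes with Si306, and all were called.

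FTH1 A_32_P111565 had log2 ratios of 0.44 and 0.38 with Si306 at 2 Gy and of 0.14 and 0.19 at 10 Gy. It rose 1.33-fold at 2 Gy (adjusted p = 2.99e-06) and 1.12-fold at 10 Gy (adjusted p = 0.00297, limma). Over the 5 FTH1 probes the log2 fold change with Si306 ran from -0.10 to 0.46 at 2 Gy and from -0.31 to 0.33 at 10 Gy. A_32_P820503 was the probe that went the other way, with -0.10 (adjusted p = 0.0494) and -0.31 (adjusted p = 4.66e-05) by limma, which became 0.63 and 0.17 with median centring. The files place it at chr11:61488317-61488347, a span shorter than its 60 bases, and the bearing of this on its reading was not tested. A_24_P919330 rose at 2 Gy (0.23) and at 10 Gy stood at 0.08 (limma adjusted p = 0.142).

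After PT alone the ferritin probes spread more, and after loess they disagreed in sign at both doses. In U87 2 Gy, FTL A_23_P50498 had a log2 fold change of -0.19, which turned to a positive value, 0.32, with median centring, while the other FTL probes rose by 0.16 and 0.28. FTH1 A_24_P919330, which with 73.3% GC exceeds 99.2% of the kept probes in GC content, stood at 1.06 and 0.88 on the 2 arrays and rose 1.96-fold (limma adjusted p = 2.02e-08). FTH1 A_32_P820503 rose by 0.43, and the other 3 FTH1 probes, at -0.07, -0.06 and 0.12, were not called. In U87 10 Gy, A_24_P919330 rose 1.43-fold (limma adjusted p = 1.73e-06), while A_32_P111565, A_24_P58337 and A_32_P342064 fell by 0.66, 0.59 and 0.29 on the log2 scale and A_32_P820503 stood at 0.07 and was not called. The FTL probes had log2 fold changes of -0.41, -0.23 and -0.09 there, the last not called. With median centring all 8 ferritin probes lay above 0 in U87 2 Gy, from 0.32 to 1.39. In U87 10 Gy the FTL probes then turned to 0.0080, 0.15 and 0.28 in the order above, FTH1 A_32_P342064 turned to 0.11, and A_32_P111565 and A_24_P58337 stood at -0.23 and -0.14. No single direction for FTL or FTH1 after PT at either dose can be read from these values.

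The doses differed in the same direction on every ferritin probe. In U87 10 Gy, FTH1 A_32_P111565 had log2 ratios of -0.60 and -0.72, against -0.05 and -0.09 in U87 2 Gy, and the arrays of the doses did not overlap. The difference, 10 Gy minus 2 Gy, was -0.59 (limma adjusted p = 6.24e-05). All 5 FTH1 and all 3 FTL probes were lower at 10 Gy than at 2 Gy, with differences from -0.59 to -0.22, each past the threshold (10.6% of all probes were called lower), and none changed sign under another scaling. This statement depends on where the scans with conflicting labels are placed. With every scan placed by its label, the difference for FTH1 A_32_P111565 was -0.39 (adjusted p = 0.996), and with each scan taken as a replicate and array as a random block it was -0.21 (adjusted p = 0.413, limma). Without both arrays that carry such a scan it was -0.55 (limma adjusted p = 0.0105), and 5 of the 8 ferritin probes were still called. The brightest FTL probe, A_23_P50498, was among those that were not (-0.21, limma adjusted p = 0.113).

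**Figure D2:**
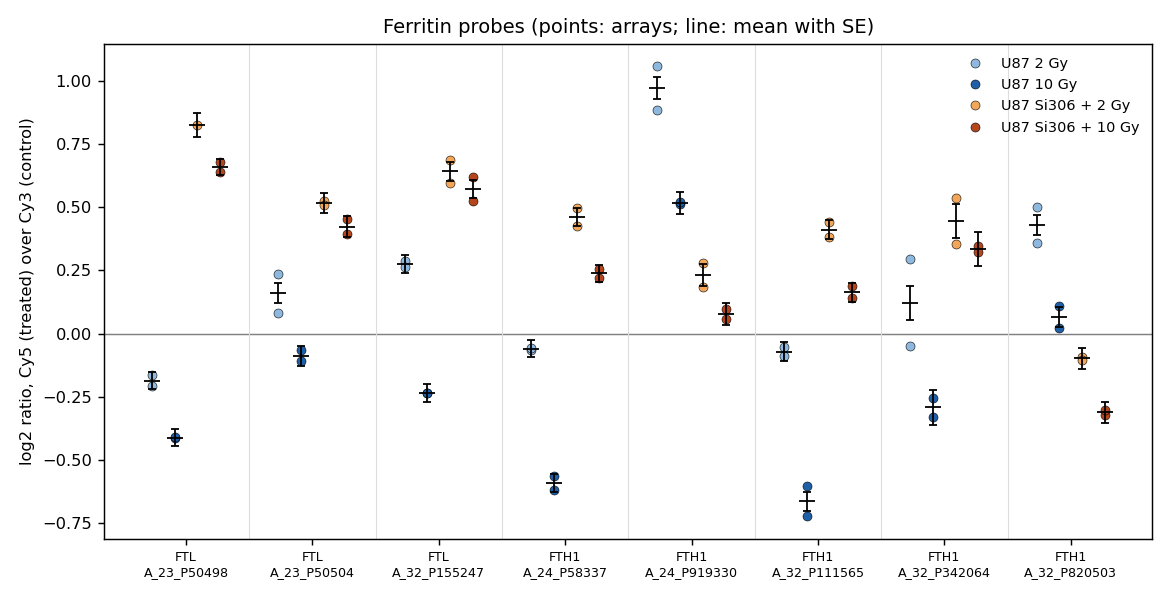
The log2 ratio of Cy5 over Cy3 is plotted for the 3 FTL and 5 FTH1 probes, with 1 point for each array and a line at the fitted mean with its SE. After PT alone all 8 probes sit lower at 10 Gy than at 2 Gy, and with Si306 7 of 8 probes sit above 0.

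SLC7A11 encodes the light chain of the cystine/glutamate exchanger, which brings in the cystine from which glutathione is made. Its brightest probe, A_32_P165477 (chr4:139446439-139446498, minus strand, hg17), had log2 ratios of -0.35 and -0.24 in U87 2 Gy and of 0.17 and 0.21 in U87 10 Gy. It thus lay below 0 on both arrays at the lower dose and above 0 on both at the higher one. The second probe, A_32_P42684 (chr4:139444162-139444221), stood at -0.25 and -0.23 in U87 2 Gy and at -0.37 and -0.39 in U87 10 Gy. The probes therefore had the same sign at 2 Gy, with log2 fold changes of -0.30 and -0.24 (-0.0064 and 0.026 with median centring), and opposed each other at 10 Gy, with 0.19 and -0.38 (limma adjusted p = 0.00235 and 1.66e-06). With Si306 both fell at both doses, by 0.36 and 0.20 at 2 Gy and by 0.14 and 0.20 at 10 Gy on the log2 scale. The scanner's own log ratios gave larger falls with Si306 at 2 and 10 Gy, of -0.90 and -0.59 for A_32_P165477 and of -0.39 and -0.40 for A_32_P42684, and median centring gave -0.84 and -0.40 for the first and -0.52 and -0.36 for the second. The third probe, A_24_P200420, was not well above background in either channel on any array with Si306, and no fold is given for it there. After PT alone it stood at -0.07 and -0.04 and was not called.

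GCLC and GCLM encode the catalytic and the modifier subunit of glutamate-cysteine ligase, which makes the first and rate-limiting step of glutathione synthesis. GCLM (chr1:94066555-94066614, minus strand, hg17) had log2 ratios of -0.47 and -0.51 in U87 2 Gy and of -0.44 and -0.35 in U87 10 Gy. All 4 arrays lay below 0, and GCLM fell 1.4-fold (adjusted p = 6.62e-07) and 1.31-fold (adjusted p = 2.96e-06, limma). With Si306 it stood at 0.15 and 0.13 at 2 Gy and at 0.15 and 0.10 at 10 Gy, and the small rises of 1.1-fold and 1.09-fold were called (limma adjusted p = 0.00439 and 0.00998).

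The 2 GCLC probes opposed each other in every configuration after loess. A_23_P145114 (chr6:53470156-53470215) had log2 fold changes of 0.36 and 0.25 after PT at 2 and 10 Gy and of -0.16 and -0.41 with Si306 at these doses. A_23_P352879 (chr6:53471396-53471459) had -0.54 and -0.63 after PT and 0.18 and 0.15 with Si306. With median centring the same values were 0.70, 0.51, 0.22 and -0.14 for A_23_P145114, the third of them turned, and -0.22, -0.37, 0.34 and 0.29 for A_23_P352879. All 8 values after loess passed the threshold and the 2 arrays of each configuration had the same sign. The second probe is the one whose 4 values had the signs of GCLM. Although A_23_P145114 was the brighter of the 2 and stands for GCLC in the counts, GCLC has no settled direction in any configuration.

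TXNRD1 encodes cytosolic thioredoxin reductase, which uses NADPH to keep thioredoxin reduced, and had the largest fall among the brightest probes of the members after loess. Its probe (chr12:103245100-103245159, plus strand, hg17) had log2 ratios of -0.58 on both arrays of U87 2 Gy and of -1.05 and -1.10 on those of U87 10 Gy. With Si306 it stood at -0.18 and -0.14 at 2 Gy and at -0.48 and -0.47 at 10 Gy. All 8 arrays lay below 0, and at each comparison the arrays of 10 Gy lay below those of 2 Gy. TXNRD1 fell 1.5-fold at 2 Gy (adjusted p = 8.41e-08) and 2.1-fold at 10 Gy (adjusted p = 6.46e-10, limma) after PT. With Si306, against PT alone on the other slide, TXNRD1 fell 1.12-fold (adjusted p = 0.00112) and 1.39-fold (adjusted p = 3.65e-07, limma). The falls on the 2 slides cannot be added up. The fall at Si306 + 2 Gy turned to a log2 fold change of 0.06 with median centring.

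SRXN1 encodes sulfiredoxin, which restores over-oxidised peroxiredoxins. Its probe (chr20:575563-575622, minus strand, hg17) had log2 ratios of -0.52 and -0.49 in U87 2 Gy and of -0.50 and -0.55 in U87 10 Gy. The arrays of the doses overlapped, and SRXN1 fell 1.41-fold and 1.44-fold (limma adjusted p = 3.01e-07 and 1.61e-07). With Si306 it was 0.10 and 0.08 at 2 Gy and 0.07 and 0.11 at 10 Gy, rises of 1.07-fold each (limma adjusted p = 0.0267 and 0.0297). The difference between the doses was -0.03 after PT, with a 95% interval from -0.13 to 0.07, and 0.00 with Si306, from -0.10 to 0.10.

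NQO1 encodes a quinone reductase and is a standard readout of NRF2 activity. Its probe (chr16:68301775-68301834, minus strand, hg17) gave -0.04 on the 1 array of U87 2 Gy with a value, and 0.02 and -0.10 in U87 10 Gy. With Si306 the log2 ratios were 0.16 and 0.08 at 2 Gy and 0.06 and -0.04 at 10 Gy. Values lay on both sides of 0 at 10 Gy with and without Si306. On the Si306 slide the normalised intensity of NQO1 was low, from 146 to 244, which limits the reading of its ratios there. The rise of 1.09-fold in U87 Si306 + 2 Gy was called (limma adjusted p = 0.0299) and became a log2 fold change of -0.03 with median centring. In the other 3 configurations the 95% intervals ran from -0.17 to 0.10, from -0.14 to 0.05 and from -0.08 to 0.10.

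Sequence upstream of the genes was searched for the core of the antioxidant response element, TGACNNNGC, on both strands within 250 bases before the start (RefSeq, GRCh38.p14). It occurred in 3830 of 35116 such windows, or 10.9%. A window was at hand for 6 of the 9 genes, and 2 of these, GCLM and TXNRD1, held the core. FTL, GCLC, NQO1 and SRXN1 did not hold it in this stretch, which says only that these letters are not in it. The GCLM window and the TXNRD1 window of the start farthest upstream are shown because both genes fell after PT at both doses. They are chr1:93909431-93909680 (minus strand) and chr12:104215529-104215778 (plus strand), each printed along its gene, with capitals for the core, which in GCLM reads on the opposite strand with its nearest base 26 bases before the start, and in TXNRD1 on the same strand with its nearest base 91 bases before it:
GCLM: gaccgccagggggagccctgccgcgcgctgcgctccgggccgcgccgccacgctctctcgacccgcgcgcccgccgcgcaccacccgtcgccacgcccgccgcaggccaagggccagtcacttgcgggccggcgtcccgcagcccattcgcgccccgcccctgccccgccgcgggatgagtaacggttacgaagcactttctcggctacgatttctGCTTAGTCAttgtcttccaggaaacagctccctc
TXNRD1: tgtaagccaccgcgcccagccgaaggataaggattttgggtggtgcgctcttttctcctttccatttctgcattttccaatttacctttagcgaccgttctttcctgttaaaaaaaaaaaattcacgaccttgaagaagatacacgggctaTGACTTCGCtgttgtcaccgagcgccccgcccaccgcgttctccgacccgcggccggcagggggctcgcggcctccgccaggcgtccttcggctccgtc

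The doses were next set against each other within each treatment, a comparison in which a constant dye effect of a probe cancels. For PT, 5 of 9 genes differed between 10 and 2 Gy (20.5% of all gene names were called, 9.64% higher and 10.9% lower), of which SLC7A11 was higher (its second probe, at -0.14, was lower) and HMOX1, TXNRD1, FTL and FTH1 were lower at 10 Gy. TXNRD1 had a difference of -0.49 (limma adjusted p = 7.06e-05) and HMOX1 one of -0.26 (limma adjusted p = 0.00287). Of the 18 probes 12 were called (19.9% of all probes). With every scan placed by its label, or with each scan as a replicate as labelled, 0 of 9 genes were called, beside 0.00% and 0.0525% of all gene names in the same fits. For TXNRD1 the difference was then -0.17 (adjusted p = 0.996) and -0.11 (adjusted p = 0.553, limma). In the same order it was -0.08 and -0.05 for HMOX1, 0.19 and 0.12 for SLC7A11 and -0.08 and -0.05 for FTL. Without both arrays that carry a conflicting scan, 3 of 8 genes with a value were called, beside 8.50% of all gene names.

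For Si306 added to PT, 5 of 9 genes differed between the doses (22.0% of all gene names were called, 9.81% higher and 12.1% lower), and 7 of 18 probes (21.2% of all probes), with the brightest probe of SLC7A11 higher and those of HMOX1, GCLC, TXNRD1 and FTH1 lower at 10 Gy. The second probes of SLC7A11 (0.00, adjusted p = 0.986) and GCLC (-0.02, adjusted p = 0.765, limma) were not called. HMOX1 had the largest difference among the members, -0.92 on the log2 scale (95% interval -1.02 to -0.82, limma adjusted p = 6.77e-07), so that the change with Si306 was 1.89-fold smaller at 10 Gy. TXNRD1 differed by -0.32 (adjusted p = 0.000912) and FTH1 by -0.25 (adjusted p = 0.00837, limma). The HMOX1 difference was called under all 22 alternatives tried, with adjusted p from 2.39e-11 to 0.00164 by limma, while the count of genes called fell to 1 of 9 with scans averaged by array and label (8.22% of all gene names) and to 3 without Si306 + 2 Gy array 1 (10.8%) or either array of Si306 + 10 Gy (11.3% and 10.5%).

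**Figure D3:**
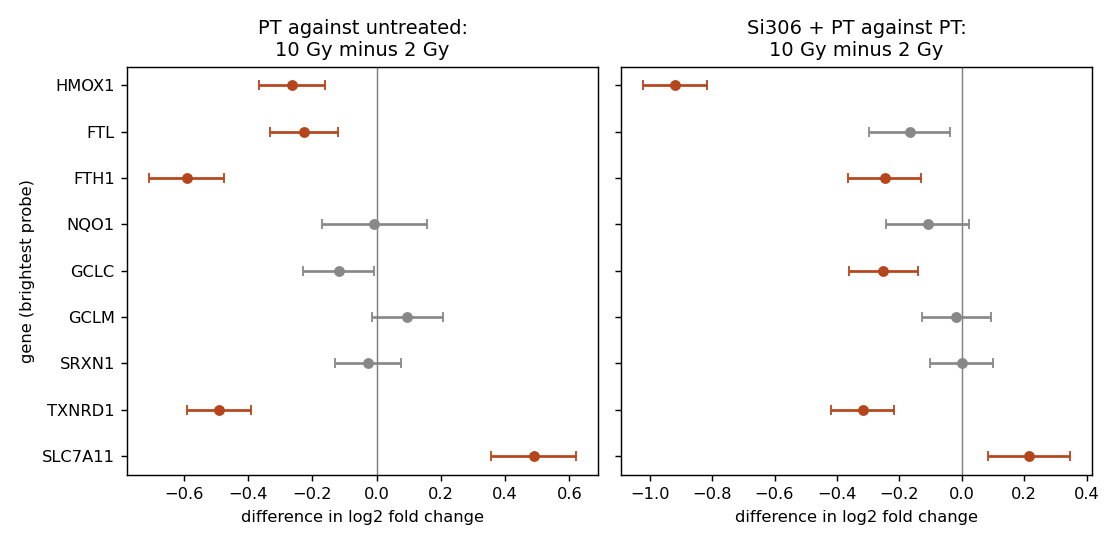
The difference in log2 fold change between 10 and 2 Gy is plotted for the brightest probe of each gene, for PT against untreated cells (left) and Si306 + PT against PT (right), with 95% intervals and called genes in red. HMOX1 lies at -0.26 on the left and at -0.92 on the right, and SLC7A11 lies above 0 in both.

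Scaling decided the direction of several members. With each scan centred on its median in place of loess, 17 of 108 values of member probes (18 probes in the 4 configurations and the 2 dose comparisons), each called under at least one of these scalings, turned to the other direction. These include SLC7A11 A_24_P200420 in the dose comparison with Si306, where the probe was not well above background and its sign has no reading. Among the brightest probes, FTL in both PT configurations, FTH1 in U87 2 Gy, HMOX1 and NQO1 in U87 10 Gy, and GCLC, TXNRD1 and NQO1 in U87 Si306 + 2 Gy were among them. Of the genes called, 6 of 7 had 1 sign under all 6 scalings at each dose of PT, and 6 of 9 and 8 of 8 did so with Si306 at 2 and 10 Gy. The falls of GCLM, SRXN1 and TXNRD1 after PT and the rises of HMOX1, FTL, FTH1, GCLM and SRXN1 with Si306 were of this kind, but their size was not fixed. With median centring, at 2 and 10 Gy, the falls after PT were smaller for GCLM (-0.18 and -0.13), SRXN1 (-0.11 and -0.21) and TXNRD1 (-0.24 and -0.80). The rises with Si306 were then larger for FTL (1.74 and 1.27), FTH1 (1.33 and 0.79), GCLM (0.43 and 0.35) and SRXN1 (0.62 and 0.46). HMOX1 with Si306 ranged from 2.09 to 2.69 at 2 Gy and from 1.17 to 1.56 at 10 Gy over the scalings.

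**Figure D4:**
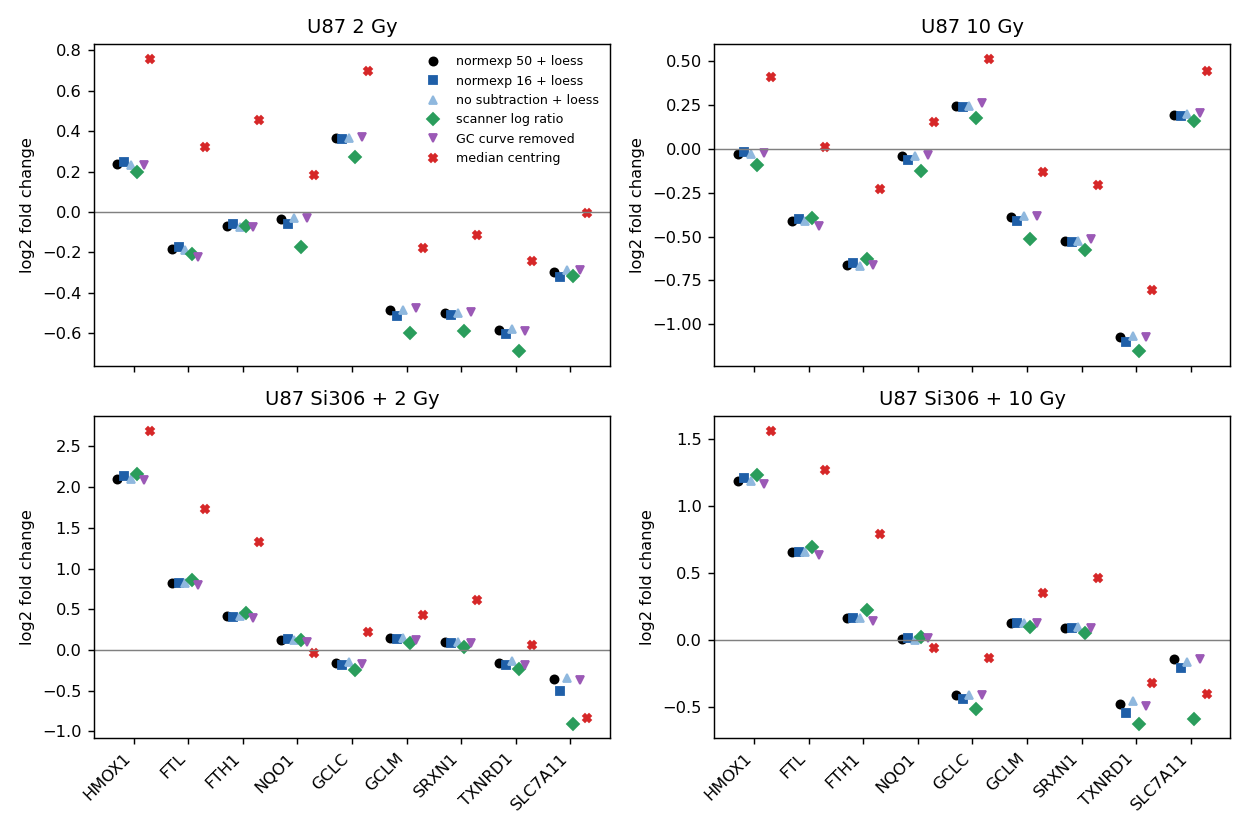
The log2 fold change of the brightest probe of each gene is plotted for 6 scalings of the same arrays, 1 panel for each configuration. Median centring (red crosses) is on the other side of 0 from the other scalings for FTL in both PT configurations, while HMOX1 with Si306 is far above 0 under all 6. For SLC7A11 with Si306 the scanner log ratio lies farther from loess than median centring does.

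Of 11 regulators of NRF2 on the list, 6 rose and 2 fell after PT at 2 Gy, 7 rose and 3 fell at 10 Gy, and with Si306 5 rose and 2 fell at 2 Gy and 3 rose and 3 fell at 10 Gy. The shares called were 72.7%, 90.9%, 63.6% and 54.5%, beside 57.0%, 57.4%, 66.2% and 62.0% of all gene names. NFE2L2 had log2 fold changes of -0.08 (limma adjusted p = 0.059) and 0.13 after PT at 2 and 10 Gy and of 0.15 and 0.18 with Si306 at these doses. The last 3 were called, and the first became 0.31 with median centring. KEAP1 rose in all 4, by 0.45, 0.27, 0.10 and 0.30 on the log2 scale. BACH1 rose by 0.15, 0.36 and 0.36 in the first 3 and stood at 0.07 in the last (limma adjusted p = 0.0974).

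Of 70 other genes listed for the same functions, 67 were tested in U87 2 Gy and 68 elsewhere. After PT 29 rose and 18 fell at 2 Gy, and 31 rose and 17 fell at 10 Gy (70.1% and 70.6% called, beside 57.0% and 57.4% of all gene names). With Si306 32 rose and 15 fell at 2 Gy, and 28 rose and 19 fell at 10 Gy (69.1% called at each dose, beside 66.2% and 62.0%). Among the larger rises after PT were those of OSGIN1 (0.96 at 2 Gy and 0.83 at 10 Gy, log2 fold change; OKL38 on the array), of the KEAP1-binding adaptor SQSTM1 at 2 Gy (0.58) and of the p53-responsive sestrin SESN1 at 10 Gy (0.95). The largest falls were those of IDH1 (-0.65 and -0.60), of the export pump ABCC2 (-0.40 and -0.63), of MAFG, a small MAF partner of NRF2, at 2 Gy (-0.40) and of AKR1C1 at 10 Gy (-0.52). With Si306, catalase (CAT, 0.71 at 2 Gy and 0.74 at 10 Gy), glutaredoxin (GLRX, 0.71 and 0.56), GPX3 at 2 Gy (0.63) and GPX4, the peroxidase of lipid hydroperoxides, at 10 Gy (0.53) rose most. MAFG (-0.51 at both doses), ABCC3 (-0.59) and NFE2L1 (-0.49) at 2 Gy, and PRDX3 (-0.44) and PRDX1 (-0.40) at 10 Gy fell most. MAFG at both 2 Gy configurations, NFE2L1 and PRDX1 turned to a rise with median centring.

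HMOX1 varied most over the configurations, with an SD of 0.97 of its 4 log2 fold changes. Among 11216 gene names with a current symbol, the 3 nearest to it in Euclidean distance over the 4 log2 fold changes were CEACAM1 (distance 0.41), CCL26 (0.53) and KRT32 (0.70). CEACAM1, a cell adhesion molecule, stood at 0.18, 0.32, 2.28 and 1.28, and CCL26, a chemokine, at 0.18, -0.07, 1.60 and 1.03. KRT32, a hair keratin, stood at 0.11, 0.03, 1.58 and 0.74. None of the other 8 members was among them.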

How the data were processed

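RNA of U87 cells was hybridized to Agilent 4x44K arrays. The scanner tables deposited by the authors, made with Feature Extraction 9.5.3.1, give the mean signal intensity and local background of each dye for 45015 spots, with the log10 ratio of the scanner software. A matrix, also deposited, holds this log10 ratio rounded (largest difference 0.005, all column medians 0). From the intensities, outlier-flagged spots, from 3.1% to 5.98% per scan, were dropped, the background was corrected by normexp with an offset of 50, and log2 ratios of Cy5 over Cy3 were normalised by loess within each scan, with control spots at weight 0. Spots of a probe and then the scans of an array were averaged, so that 22 of 24 scans gave 8 arrays. Per scan, 56.3% to 65.5% of the probes passed the scanner's background criterion in Cy3 and 62.4% to 73.9% in Cy5, at most 0.0156% of the spots were saturated, and the number of arrays limits the precision.

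Probes that passed it in Cy3 or Cy5 on 2/3 or more of a configuration's arrays were kept (30329 of 41000, for 22859 of 30982 gene names). All 4 configurations entered 1 limma 3.58.1 fit (R 4.3.3, statmod 1.5.0) with 4 residual and 6.81 prior degrees of freedom, and p-values were adjusted by Benjamini-Hochberg over all kept probes. The mean of a configuration was tested against 0, as was the difference between doses. The fit was also run on simulated arrays with known changes. These held no dye effect of single probes, no repeat scans and no slide effect, so the simulation does not bear on those limits. The brightest probe stood for a gene. Every member probe is named, with NFE2L2, KEAP1 and BACH1, the 3 largest rises and falls of the other listed genes in each configuration that had the same sign on both arrays, and the 3 genes nearest to the member that varied most. A gene that this rule names is not reported here. The members and lists were chosen with earlier results of these data known. The replicate numbers of the labels did not pair the scans: over 36 pairs of the same number, deviations from the group means correlated at -0.24 to 0.23, with 2 pairs over 0.1. Alternatives were an offset of 16, no subtraction, the scanner's log10 ratio, the matrix, median centring, other filters, a gene-level fit, a curve on probe GC content, other uses of the scans, the replicate number as a block, and arrays left out.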

Additional observations from a re-analysis of the deposited data

Results flagged for a closer look

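The doses differed on 12 of 18 member probes after PT, by limma on the difference of the 2 configurations (10 Gy minus 2 Gy, log2 scale). HMOX1 (A_23_P120883) differed by -0.26, TXNRD1 (A_23_P204581) by -0.49, SLC7A11 by 0.49 (A_32_P165477) and by -0.14 (A_32_P42684). FTL differed by -0.22 (A_23_P50498), -0.25 (A_23_P50504) and -0.51 (A_32_P155247). FTH1 differed by -0.53 (A_24_P58337), -0.45 (A_24_P919330), -0.59 (A_32_P111565), -0.41 (A_32_P342064) and -0.36 (A_32_P820503). The scans of each dose that lie on an array of the other dose bear on all of these, and none of the 9 genes' brightest probes was called with every scan placed by its label.

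With Si306, 7 of 18 probes changed by different amounts at the 2 doses. HMOX1 (A_23_P120883) differed by -0.92, TXNRD1 (A_23_P204581) by -0.32, GCLC (A_23_P145114) by -0.25 and SLC7A11 (A_32_P165477) by 0.21. FTH1 differed by -0.22 (A_24_P58337), -0.25 (A_32_P111565) and -0.21 (A_32_P820503). The second SLC7A11 probe, A_32_P42684, stood at 0.00 there.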

How the results depend on the processing

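Of 2310 values of member probes under the alternatives, 2088 kept their side of the threshold and, if called in the fit reported above, their direction. Values called in neither fit are among these whatever their sign. With median centring, these turned to the other direction among the values called with loess or with median centring. In U87 2 Gy they were NQO1 0.18, SLC7A11 A_32_P42684 0.026, FTL A_23_P50498 0.32, FTH1 A_24_P58337 0.47 and A_32_P111565 0.45. In U87 10 Gy they were HMOX1 0.41, NQO1 0.15, FTL 0.0080 (A_23_P50498), 0.28 (A_23_P50504) and 0.15 (A_32_P155247), and FTH1 A_32_P342064 0.11. In U87 Si306 + 2 Gy it gave NQO1 -0.032, GCLC A_23_P145114 0.22, TXNRD1 0.065 and FTH1 A_32_P820503 0.63, in U87 Si306 + 10 Gy FTH1 A_32_P820503 0.17, and for the difference between the doses with Si306 SLC7A11 A_24_P200420 0.54, a probe that was not well above background on any array there, so that its sign has no reading. Of the other genes, CEACAM1 (-0.16), MAFG (0.054) and NFE2L2 (0.31) in U87 2 Gy, MAFG (0.13) and NFE2L1 (0.34) in U87 Si306 + 2 Gy and PRDX1 (0.22) in U87 Si306 + 10 Gy turned. HMOX1 in U87 10 Gy also turned, to 0.084, with every scan as labelled and array as a random block.

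The members called for the difference between the doses after PT, 5 of 9, became 0 with all scans averaged by array and label, 0 with every scan as labelled and array as a random block, 0 with the replicate block added, and 3 without both arrays that carry a scan of the other dose's label (0.00%, 0.0525%, 0.0481% and 8.50% of all gene names in the same fits). With Si306 the 5 became 1, 3 and, with the replicate block, 3 (8.22%, 18.2% and 18.2%). In U87 Si306 + 10 Gy the 8 became 5 with scans averaged by array and label (49.8%). The replicate numbers are shared numbers only (8 of 24 scans lay closest to their own number), and the block changed no other count by over 1.5 times. Leaving out each array in turn gave 7 to 7 members in U87 2 Gy, 6 to 7 in U87 10 Gy, 4 to 9 in U87 Si306 + 2 Gy (4 without array 1, where FTL then had no value), 5 to 8 in U87 Si306 + 10 Gy (5 without either of its arrays), 4 to 5 for the doses after PT and 3 to 5 for the doses with Si306 (3 without Si306 + 2 Gy array 1 or either array of Si306 + 10 Gy). In those fits the lone array is assumed to vary like the other configurations. Beyond the fewer arrays in these fits, the cause was not tested. Dim signal limits SLC7A11 and NQO1 on the Si306 slide.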
